A study of Mus musculus with 14 samples.

Results

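Apolipoproteins are the proteins that coat lipoproteins, the particles in which fat and cholesterol travel in blood and lymph. The genes described here are 10 listed members of that system: Apoa1, Apoa2, Apoa4, Apob, Apoc2, Apoc3, Apoe, Apoh, Apom and Mttp, the last of which encodes the transfer protein that loads lipid onto apolipoprotein B. Each was taken as its probe set with 1 gene symbol and the highest mean signal. By this rule 9 of the 10 had a value among the 19938 genes of the table. The probe set of Apoc2, the activator of lipoprotein lipase, carries several symbols, so Apoc2 has no value here.

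The study measured RNA of C57BL/6 mouse material on Affymetrix gene arrays, with 14 arrays in 7 groups and 2 arrays per group. The tissue groups are liver, small intestine and gallbladder. The organoid groups, which are epithelial cultures grown in Matrigel, come from the same 3 organs and shared a medium with EGF, FGF10, HGF, nicotinamide, R-spondin 1, noggin, B27, N2 and N-acetylcysteine. A further group, called differentiated gallbladder organoids, had R-spondin 1, noggin and nicotinamide withdrawn for 2 weeks, so the comparison with undifferentiated gallbladder organoids asks what those 3 factors changed together. The labels give no age or sex of the mice and leave unsaid whether the 2 arrays of a group came from separate mice or cultures. The p-values therefore measure the spread between these arrays, which in groups other than gallbladder tissue may not be a spread between animals. The gallbladder tissue arrays differed in sex-linked genes, as given below. The liver tissue arrays differed in the acute phase genes Saa1 and Saa2, and the small intestine tissue arrays in pancreatic acinar markers, also given below.

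Lipoproteins that carry dietary and newly made triglyceride are assembled in only a few cell types, chiefly enterocytes, which secrete chylomicrons, and hepatocytes, which secrete very low density lipoprotein. In both, microsomal triglyceride transfer protein (Mttp) adds lipid to apolipoprotein B (Apob) in the endoplasmic reticulum. Smaller apolipoproteins then act as lipase activators or inhibitors, receptor ligands or scaffolds of high density lipoprotein. Cholangiocytes, the epithelial cells of bile ducts and gallbladder, are not known as a site of lipoprotein secretion.

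Before the members' values, the tissue labels were set against marker genes. All 12 hepatocyte markers were above the 40th percentile of genes on both liver tissue arrays, with a median log2 signal of 14.12 and 14.01. In liver organoids 9 and 10 of these 12 markers lay under that percentile, here called dim, whereas 8 of 8 bile duct and gallbladder epithelium markers were not dim (median 12.73 and 12.79). The 10 enterocyte markers had a median of 13.80 and 13.62 in small intestine tissue and of 12.54 and 12.48 in small intestine organoids. In gallbladder tissue 0 of 12 hepatocyte markers were dim, with a median of 12.70 in replicate 1 and 13.84 in replicate 2, although hepatocytes are not part of the gallbladder wall. Small intestine tissue replicate 2 carried pancreatic acinar markers at a median of 12.89 against 6.79 in replicate 1. No raw signals or detection calls were used, so the noise floor is unknown, and 2 arrays per group limit the precision. The marker values touch the results on both tissues, and their part in those results was not tested. In bulk RNA, fewer cells of a type and less RNA per cell cannot be told apart.

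The 9 members fell into 2 patterns, shown in the plot of signals on each array. Apoa1, Apoa4, Apoc3, Apob and Mttp had high signals in liver tissue, small intestine tissue and small intestine organoids, and low signals in liver and gallbladder organoids. Apoa2, Apoh and Apom had high signals only in liver tissue and, to varying degrees, in gallbladder tissue. Apoe followed the second pattern with an intermediate signal in small intestine tissue. All signals below are log2 values, which are compared between samples for 1 gene and not between genes.

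**Figure D1:**
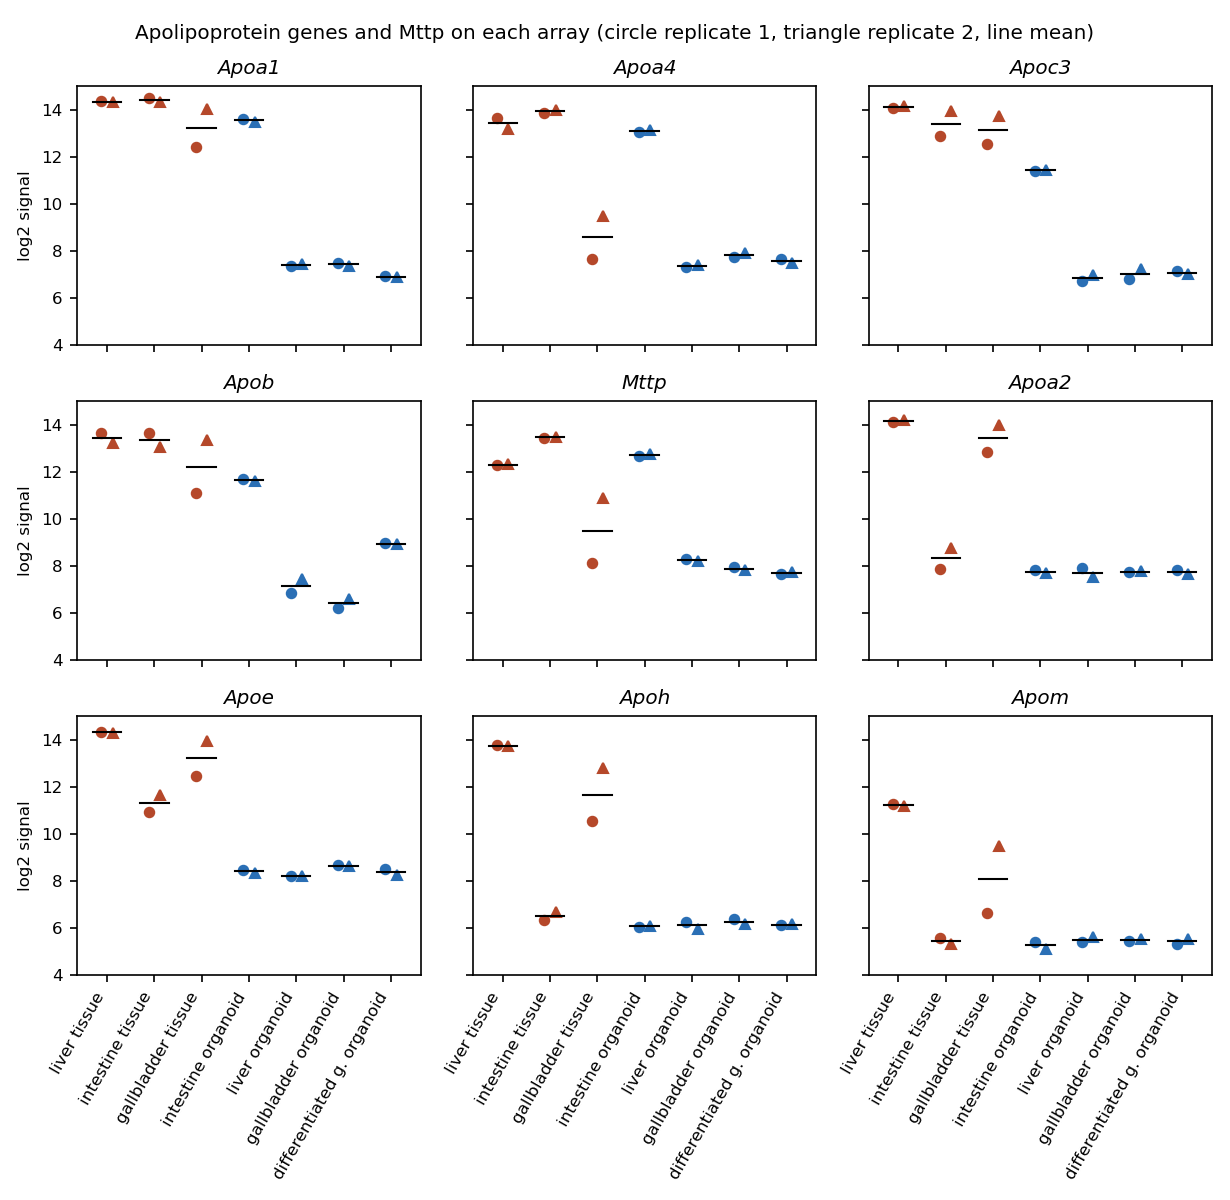
Log2 signal (y axis) of the 9 measured members on each of the 14 arrays (x axis, by group), with tissue in red, organoids in blue, circles for replicate 1, triangles for replicate 2 and a line at the group mean. The first 5 genes are high in small intestine organoids (11.41 to 13.61), and all 9 genes are higher in gallbladder tissue replicate 2 than in replicate 1.

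Apoa4 encodes an apolipoprotein of chylomicrons and high density lipoprotein that enterocytes make after a fatty meal. Its signal was 13.86 and 13.99 in small intestine tissue, 13.66 and 13.16 in liver tissue, and 13.03 and 13.14 in small intestine organoids. In gallbladder tissue it was 7.65 and 9.50. In the remaining organoids it lay between 7.32 and 7.91. The first 3 groups were high on every array, gallbladder tissue replicate 1 was at the level of gallbladder organoids, and only gallbladder tissue replicate 2 stood between.

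Apoa1, the main protein of high density lipoprotein, read 14.35 and 14.31 in liver tissue, 14.48 and 14.33 in small intestine tissue, and 13.61 and 13.47 in small intestine organoids. In gallbladder tissue it read 12.43 and 14.02, and in liver organoids, gallbladder organoids and differentiated gallbladder organoids 6.90 to 7.49. Apoc3, which inhibits lipoprotein lipase and the clearance of remnants, read 14.07 and 14.13 in liver tissue, 12.87 and 13.92 in small intestine tissue, 12.55 and 13.74 in gallbladder tissue and 11.41 and 11.42 in small intestine organoids. Unlike Apoa4, both genes were high on both gallbladder tissue arrays. Apoa1, Apoc3 and Apoa4 are consecutive genes in the RefSeq gene table, followed by Apoa5.

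Apoa5, a regulator of plasma triglyceride that lies next to Apoa4, did not share the intestinal signal of these 3 neighbours. It read 13.11 and 13.10 in liver tissue and 7.42 on both small intestine tissue arrays, a difference of 5.69 ± 0.68 (SE, adjusted p = 9.09e-05). Apoa5 is a gene of a separate list of 13 other apolipoproteins, 11 of them measured. Because Apoa1 and Apoa4 were both high in enterocyte-bearing samples and low in biliary organoids, the 250 bases before their annotated starts are shown, from RefSeq on GRCm38.p6, at chr9:46228380-46228629 for Apoa1 and chr9:46240594-46240843 for Apoa4, both on the plus strand.
Apoa1: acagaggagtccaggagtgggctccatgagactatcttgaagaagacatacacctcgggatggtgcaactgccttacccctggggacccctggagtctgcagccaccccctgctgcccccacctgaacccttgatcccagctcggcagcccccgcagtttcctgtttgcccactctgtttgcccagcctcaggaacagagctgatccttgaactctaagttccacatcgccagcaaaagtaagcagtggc
Apoa4: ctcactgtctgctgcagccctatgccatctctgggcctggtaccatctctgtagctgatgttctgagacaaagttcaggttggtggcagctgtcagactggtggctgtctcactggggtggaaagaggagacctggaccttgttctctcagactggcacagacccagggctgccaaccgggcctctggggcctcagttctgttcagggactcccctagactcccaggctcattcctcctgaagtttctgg

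Apob encodes the large structural protein of chylomicrons and very low density lipoprotein. Its signal was 13.65 and 13.23 in liver tissue, 13.66 and 13.05 in small intestine tissue, 11.08 and 13.34 in gallbladder tissue and 11.69 and 11.60 in small intestine organoids. It was 6.85 and 7.45 in liver organoids, 6.23 and 6.58 in gallbladder organoids, and 8.96 and 8.91 in differentiated gallbladder organoids. Liver and small intestine tissue overlapped, and differentiated organoids stood above both other biliary organoid groups.

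Mttp read 13.43 and 13.48 in small intestine tissue, 12.66 and 12.74 in small intestine organoids, and 12.27 and 12.32 in liver tissue. In gallbladder tissue it read 8.11 and 10.88, and in the remaining organoids 7.67 to 8.28. Gallbladder tissue replicate 1 was inside the range of those organoids, and replicate 2 was between them and liver tissue. Of these partners in assembly, Apob passed the test of withdrawal of the 3 factors, described further on, and Mttp did not. Their changes were not tested against each other. The windows before the starts of Apob and Mttp are shown. They lie at chr12:7977427-7977676 on the plus strand for Apob and chr3:138143419-138143668 on the minus strand for Mttp. The capitals mark a TATA box, TATAAA, which begins 60 bases before the Apob start.
Apob: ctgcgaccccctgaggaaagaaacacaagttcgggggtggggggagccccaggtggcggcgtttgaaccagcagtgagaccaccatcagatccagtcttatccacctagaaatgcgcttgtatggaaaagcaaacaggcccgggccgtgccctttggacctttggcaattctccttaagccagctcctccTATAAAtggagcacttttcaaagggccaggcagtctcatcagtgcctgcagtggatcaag
Mttp: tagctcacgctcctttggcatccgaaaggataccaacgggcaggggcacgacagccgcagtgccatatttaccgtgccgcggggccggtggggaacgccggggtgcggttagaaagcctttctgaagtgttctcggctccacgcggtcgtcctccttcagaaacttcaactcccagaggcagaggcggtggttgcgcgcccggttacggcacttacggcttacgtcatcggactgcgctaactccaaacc

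Apoh encodes beta-2-glycoprotein I, a plasma protein that binds phospholipids and is made by hepatocytes. It read 13.76 and 13.72 in liver tissue and 10.56 and 12.78 in gallbladder tissue. On the other 10 arrays it lay between 5.98 and 6.67 and was dim on each. Apom, a carrier of sphingosine-1-phosphate on high density lipoprotein, read 11.25 and 11.20 in liver tissue, 6.63 and 9.50 in gallbladder tissue and 5.13 to 5.60 elsewhere, again dim on the other 10 arrays and dim on gallbladder tissue replicate 1. Neither gene was above the dim level in small intestine tissue or organoids.

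Apoa2, the second protein of high density lipoprotein, read 14.09 and 14.18 in liver tissue and 12.85 and 14 in gallbladder tissue. In small intestine tissue it read 7.88 and 8.76, and in the 4 organoid groups 7.53 to 7.90. Apoe, the receptor ligand for remnant clearance that macrophages also make, read 14.31 and 14.30 in liver tissue, 12.47 and 13.95 in gallbladder tissue, 10.94 and 11.65 in small intestine tissue and 8.19 to 8.66 in organoids. Macrophage markers moved in the same tissues, with a median of 10.60 and 10.55 in liver tissue, 7.84 and 8.74 in gallbladder tissue, 7.39 and 8.48 in small intestine tissue and 6.33 to 6.81 in organoids. Their part in the Apoe signal was not tested. The windows before the starts of Apoh, at chr11:108395047-108395296 on the plus strand, and Apom, at chr17:35131802-35132051 on the minus strand, are shown as those of the liver pattern.
Apoh: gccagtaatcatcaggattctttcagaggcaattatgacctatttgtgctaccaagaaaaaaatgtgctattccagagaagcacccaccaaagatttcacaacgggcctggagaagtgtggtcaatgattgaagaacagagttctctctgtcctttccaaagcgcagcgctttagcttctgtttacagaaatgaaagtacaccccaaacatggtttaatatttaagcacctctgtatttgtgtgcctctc
Apom: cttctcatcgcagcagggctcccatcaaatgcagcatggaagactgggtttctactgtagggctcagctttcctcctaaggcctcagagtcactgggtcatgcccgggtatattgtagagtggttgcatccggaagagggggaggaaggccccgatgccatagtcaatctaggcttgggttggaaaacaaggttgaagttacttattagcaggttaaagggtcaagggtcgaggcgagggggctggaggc

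Of the 10 members, 9 have at least 1 start in the RefSeq promoter table (GRCm38.p6), with 2 windows for Apoa2, 3 for Apoe and 1 for each of the others. Apoc3 is not among them. In all, 5 short motifs were searched on both strands of the 250-base windows, and overlapping matches were kept. TATAAA was found for Apob, Apoa2 and Apoe, and in 12.4% of all 32851 windows. GTTAAT, the letters of an HNF1 half-site, was found for Apoc2 and Apoe (6.4% of all windows), and AAGGTCA, a nuclear receptor half-site, for Apoa2 (4.1%). CAAAGTC, from HNF4-type sites, and AGATAA, from GATA-type sites, were found for 0 of the 9 (3.8% and 10.0% of all windows), which says only that these letters are not in these windows. GC content was 58.0% and 57.6% before Apoa1 and Apoa4, 55.2% before Apob, 61.2% before Mttp, 42.0% before Apoh and 54.0% before Apom, against a median of 52.4% over all windows.

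The comparison of liver with small intestine tissue restates the 2 patterns, which were described from these same signals, and is no test of them. A gene was called, or passed, where its adjusted p from a linear model over all genes was below 0.05. Of the 9 members 4 were higher in liver, where 18.7% of all genes tested were called higher. Apoh was higher by 7.24 ± 0.51 log2 units (SE, adjusted p = 2.27e-06), Apoa2 by 5.81 ± 0.35 (adjusted p = 6.59e-07), Apom by 5.77 ± 0.66 (adjusted p = 6.43e-05) and Apoe by 3.01 ± 0.38 (adjusted p = 0.000137). The remaining 5 did not pass the test: Apoa1 differed by -0.07 ± 0.37, Apoa4 by -0.51 ± 0.44, Apob by 0.08 ± 0.56, Apoc3 by 0.70 ± 0.38 and Mttp by -1.16 ± 0.63 (adjusted p = 0.181). Mttp was lower in liver on both arrays, and its difference passed the test without either gallbladder tissue array (adjusted p = 3.89e-06). Apoa1, Apoa2, Apoc3 and Apoe had signals of 14 or more in liver tissue, near the top of the scale, where differences are compressed.

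Other apolipoproteins were mostly of the liver kind. Of all 19938 genes 7485 were called in liver against small intestine tissue, 3734 of them higher in liver and the rest lower. Of the counts below, the triglyceride genes called higher and the receptors and lipase genes called lower were near those shares. In the same comparison 8 of the 11 measured were higher in liver and 1, Apod, was lower (5 and 0 with the dimmest 40% of genes left out), with a median difference of 5.69 against 0.04 over all genes. Saa4, a constitutive serum amyloid A of high density lipoprotein, was higher by 7.52 ± 0.75, Apoc1 by 6.81 ± 0.41 and Apof by 6.76 ± 0.52. Saa1, an acute phase apolipoprotein, differed between the liver tissue arrays (13.46 and 7.23), and its difference of 6.33 ± 1.69 did not pass the test without liver tissue replicate 1 (3.21, adjusted p = 0.0745). Of 16 measured genes of triglyceride and cholesteryl ester synthesis 3 were higher in liver and 5 lower (5 higher without small intestine tissue replicate 2 or either gallbladder tissue array). Mogat2, which starts triglyceride resynthesis from monoacylglycerol, differed by -5.65 ± 0.37 (liver minus small intestine) and Dgat1, which completes it, by -3.05 ± 0.15. Of 12 measured lipoprotein receptors 6 were higher in liver and 2 lower, among them Cubn, the receptor cubilin (-7.21 ± 0.33). Of 14 measured lipase and remodelling genes 10 were higher in liver and 2 lower (1 lower without any 1 liver tissue, small intestine tissue or undifferentiated gallbladder organoid array, and 3 without either gallbladder tissue array), among them Npc1l1, the sterol uptake transporter (-6.05 ± 0.44).

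On both gallbladder tissue arrays 8 of the 9 members read higher than on either undifferentiated gallbladder organoid array, the exception being Apoa4 in replicate 1. The share of all genes that separated in this way is not given here. By the model 15.2% of all genes were called lower in these organoids than in gallbladder tissue. The comparison of liver with gallbladder tissue called 6 of 9 members higher in liver, against 27.4% of all genes. Apoa4 differed most, by 4.83 ± 0.44 (adjusted p = 2.14e-05), followed by Apom (3.16 ± 0.66), Mttp (2.80 ± 0.63), Apoh (2.07 ± 0.51), Apoa1 (1.11 ± 0.37) and Apoe (1.10 ± 0.38). Apoa2 (0.71 ± 0.35, adjusted p = 0.119), Apob (1.23 ± 0.56, adjusted p = 0.0975) and Apoc3 (0.95 ± 0.38, adjusted p = 0.0639) did not pass. Without gallbladder tissue replicate 2 all 9 passed, and without replicate 1 the difference fell to 0.31 for Apoa1 and 0.35 for Apoe, neither of which then passed (adjusted p = 0.0644 and 0.268). Neither gene passed without liver tissue replicate 1 (0.1 and 0.108) or 2 (0.0886 and 0.105), Apoe also did not pass without any 1 organoid array (0.0524 to 0.0543), and with only the arrays of these 2 groups fitted 1 member passed. Of all genes called here 57% were higher in liver, against 69.3% after quantile normalization and 68% after centring arrays on their medians.

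The gallbladder tissue arrays differed from each other more than the arrays of any other group did in these genes. All 9 members were higher in replicate 2, by 1.14 (Apoa2) to 2.87 (Apom), with a median of 1.85, while the median over all genes was -0.02. Of 12 hepatocyte markers 11 were higher in replicate 2 (median 1.2), as were 5 of 5 adipocyte and 8 of 10 macrophage markers. By contrast 0 of 8 bile duct markers (median -0.42) and 0 of 10 smooth muscle and fibroblast markers were higher in replicate 2. Summed over the 12 hepatocyte markers the log2 signal was 150.9 in replicate 1 and 163.6 in replicate 2, against 168.4 and 166.0 in liver tissue and 85.2 to 105.0 in the other groups. Xist read 13.51 and 5.46 and the Y-linked Eif2s3y 3.72 and 10.02 in replicates 1 and 2. These 2 arrays therefore carried RNA of different animals. The part of the liver transcripts, or of the sex of the animals, in the members' signal was not tested.

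**Figure D2:**
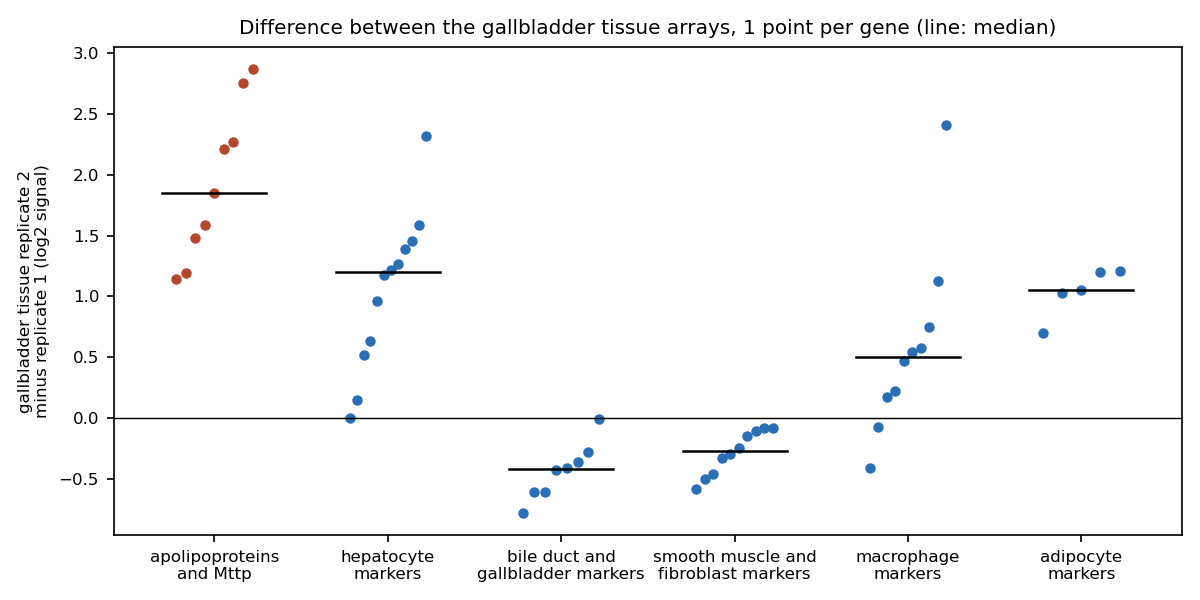
Difference in log2 signal between gallbladder tissue replicate 2 and replicate 1 (y axis) for each member and for the genes of 5 marker lists (x axis), 1 point per gene, with a line at the median. All 9 members lie above 0 (median 1.85), as do most hepatocyte markers (median 1.2), whereas bile duct markers lie below 0 (median -0.42).

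Against small intestine tissue, gallbladder tissue differed in both directions. Apoa4 was higher in small intestine by 5.35 ± 0.44 (adjusted p = 8.02e-06), Mttp by 3.96 ± 0.63 (adjusted p = 0.00061) and Apoa1 by 1.18 ± 0.37 (adjusted p = 0.0262), which makes 3 of 9 against 24.3% of all genes. Apoh was lower there (-5.17 ± 0.51), as were Apoa2 (-5.10 ± 0.35), Apom (-2.61 ± 0.66) and Apoe (-1.91 ± 0.38), which makes 4 of 9 against 20.7%. Apob (1.15 ± 0.56) and Apoc3 (0.25 ± 0.38) did not pass. Apoa1 did not pass without small intestine tissue replicate 1 (adjusted p = 0.0935) or 2 (0.0621), and Apob passed without gallbladder tissue replicate 2 (2.28, adjusted p = 0.000302). Of all genes called here 53.9% were higher in small intestine, against 65.4% after quantile normalization.

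Organoids were next compared with the tissue of their origin. All 9 members were lower in liver organoids than in liver tissue, where 18.2% of all genes were called lower, and the median difference was -6.29 against 0.00 over all genes. The differences ran from -7.63 ± 0.51 for Apoh through -7.25 ± 0.38 for Apoc3 and -6.94 ± 0.37 for Apoa1 to -4.05 ± 0.63 for Mttp (adjusted p = 0.000393). All 9 passed the test without any 1 of the 14 arrays. Of the 12 hepatocyte markers 9 and 10 were dim on the liver organoid arrays, as given above, and the highest read 12.67 and 12.83. The part of hepatocyte transcripts in the members' fall was not tested.

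Other lists of the pathway held genes called in both directions in this comparison. Over all genes 26.7% were called higher in liver organoids, and the list counts called higher below were near or under that share. Of 17 genes of lipoprotein assembly and export from the endoplasmic reticulum 11 were lower in liver organoids and 1 was higher (2 without liver tissue replicate 1). A1cf, a cofactor of Apob RNA editing, differed by -6.06 ± 0.71, Tm6sf2, which takes part in the lipidation of very low density lipoprotein, by -5.17 ± 0.23 and Pla2g12b, another gene of that step, by -4.32 ± 0.55. Of 14 measured genes of plasma lipases and high density lipoprotein remodelling 11 were lower and 0 higher, led by Pon1 (-8.46 ± 0.61) and Lcat (-6.78 ± 0.68), which are an esterase and a cholesterol acyltransferase of high density lipoprotein. Of 23 measured transcription regulators 12 were lower and 7 higher. Of 16 triglyceride and cholesteryl ester genes 9 were lower and 1 higher (2 without liver tissue replicate 1), and of 12 receptors 5 were lower and 3 higher (3 lower without liver tissue replicate 2 or liver organoid replicate 2). Of 11 other apolipoproteins 8 were lower and 2 higher (1 higher without either liver tissue array or liver organoid replicate 2, and 5 lower with the dimmest 40% of genes left out). Hnf4a, a hepatocyte and enterocyte regulator of many apolipoprotein genes, was lower (-1.28 ± 0.31, adjusted p = 0.00641) but still read 11.68 and 11.85 in liver organoids, above 95% of genes on both arrays. Clu, a further apolipoprotein, was higher in liver organoids, at 13.63 and 13.65 (0.69 ± 0.17, adjusted p = 0.00734).

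In gallbladder organoids 7 of 9 members were lower than in gallbladder tissue, against 15.2% of all genes. The difference was -6.14 ± 0.38 for Apoc3, -5.81 ± 0.56 for Apob, -5.80 ± 0.37 for Apoa1, -5.67 ± 0.35 for Apoa2, -5.41 ± 0.51 for Apoh, -4.57 ± 0.38 for Apoe and -2.56 ± 0.66 for Apom. Apoa4 (-0.75 ± 0.44, adjusted p = 0.189) and Mttp (-1.62 ± 0.63, adjusted p = 0.0556) did not pass. Both passed without gallbladder tissue replicate 1, at -1.67 (adjusted p = 0.000101) and -3.0 (adjusted p = 4.7e-08). The size of each fall in gallbladder rests on tissue arrays that carried hepatocyte markers.

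Small intestine organoids stood nearer to their tissue, with a median difference over members of -0.84. Of the 9 members 3 were lower than in tissue, against 15.6% of all genes: Apoe (-2.89 ± 0.38, adjusted p = 0.000237), Apoc3 (-1.98 ± 0.38, adjusted p = 0.0024) and Apob (-1.71 ± 0.56, adjusted p = 0.0381). Apoa1 (-0.86 ± 0.37), Apoa4 (-0.84 ± 0.44) and Mttp (-0.76 ± 0.63) were lower on every organoid array than on every tissue array but did not pass. Without either gallbladder tissue array 7 of 9 passed, because Apoa1, Apoa4, Apoh and Mttp were added. Apob did not pass without either small intestine tissue array (adjusted p = 0.17 and 0.054), either small intestine organoid array (0.118 and 0.142) or any 1 of the other organoid arrays (0.0507 to 0.0569).

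**Figure D3:**
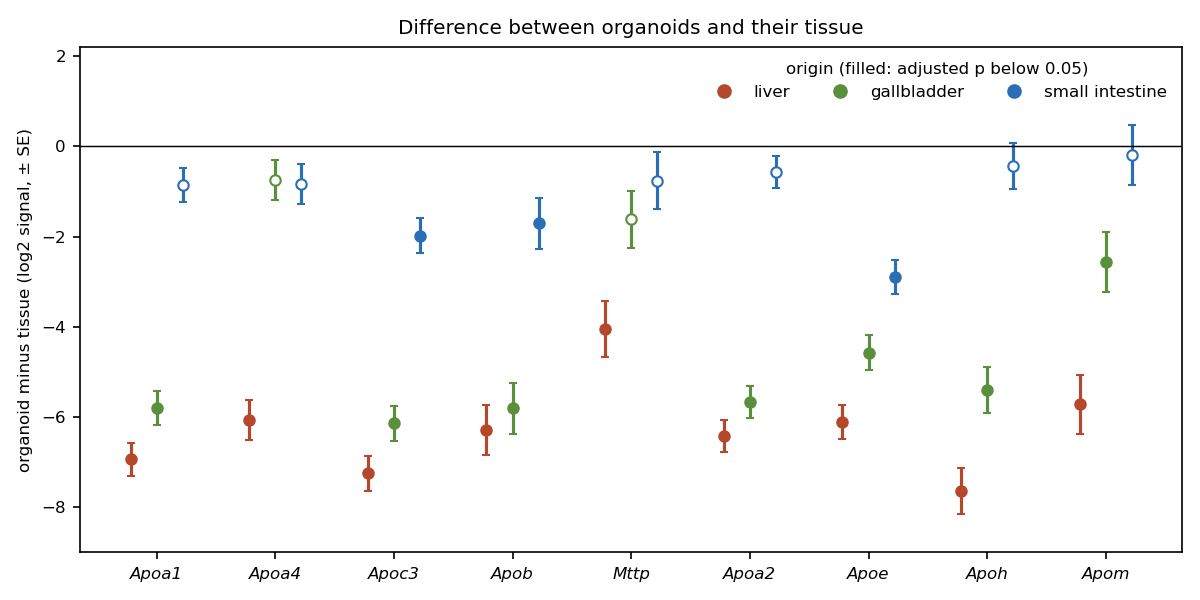
Difference in log2 signal between organoids and their tissue of origin (y axis, ± SE) for each member (x axis), with 1 colour per organ and filled points where the adjusted p was below 0.05. Liver (red) lies between -7.63 and -4.05 and small intestine (blue) between -2.89 and -0.19.

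The change between tissue and organoids was tested for a difference between organs. For all 9 members the change was more negative in liver than in small intestine, and each difference passed the test, against 16.2% of all genes. Apoh (-7.20 ± 0.73) and Apom (-5.53 ± 0.93) were dim on every small intestine array, where no fall could show, so their differences restate the fall in liver. Apoa2 (-5.86 ± 0.49) also had little room to fall, at 7.88 and 8.76 in small intestine tissue and 7.81 and 7.70 in small intestine organoids. The difference was -6.07 ± 0.53 for Apoa1, -5.22 ± 0.63 for Apoa4, -4.58 ± 0.80 for Apob and -3.29 ± 0.89 for Mttp (adjusted p = 0.0152). Apoa1, Apoa4, Apob and Mttp were high in both tissues, at 12.27 or more on every array. The change in small intestine differed from that in gallbladder for 6 of 9 members (14.3% of all genes called higher), and the change in liver differed from that in gallbladder for 4 of 9 (22.7% called lower).

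Among organoids, those of small intestine stood alone in 5 members. In gallbladder organoids 5 of 9 members were lower than in small intestine organoids, against 15.4% of all genes. The difference was -6.11 ± 0.37 for Apoa1, -5.26 ± 0.44 for Apoa4, -5.25 ± 0.56 for Apob, -4.83 ± 0.63 for Mttp and -4.41 ± 0.38 for Apoc3. In liver organoids the same 5 were lower, against 12.2% of all genes, and the difference was -6.14 for Apoa1, -5.73 for Apoa4, -4.5 for Apob, -4.45 for Mttp and -4.57 for Apoc3. Both comparisons share the small intestine organoid arrays. The other 4 members, Apoa2, Apoe, Apoh and Apom, differed by at most 0.24 in size in either comparison, and both counts stayed at 5 without any 1 array.

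Genes around these 5 differed in the same comparison with gallbladder organoids. Of all 19938 genes 7100 were called, 3068 of them lower in gallbladder organoids and the rest higher. None of the list counts of genes called higher below exceeded that share of all genes. In assembly and export 7 of 17 were lower in gallbladder organoids and 3 higher (1 without any 1 of the 4 arrays compared), and A1cf (-5.31 ± 0.71) and Tm6sf2 (-4.53 ± 0.23) led those lower. Of 16 measured genes of triglyceride and cholesteryl ester synthesis 8 were lower and 0 higher (2 without either gallbladder tissue array), among them the fatty acid binding proteins Fabp1 (-7.80 ± 0.82) and Fabp2 (-7.22 ± 0.55). Of 23 regulators 10 were lower and 3 higher. Hnf4g, a paralog of Hnf4a with an intestinal role, differed by -6.37 ± 0.21, the intestinal regulators Gata4 by -3.90 ± 0.29 and Cdx2 by -3.72 ± 0.24, and Hnf4a by -0.79 ± 0.31 (adjusted p = 0.0727; 0.000215 without either gallbladder tissue array). Clu went the other way, at 13.89 in gallbladder and 9.89 in small intestine organoids on average, a difference of 4.0 ± 0.17.

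Between gallbladder and liver organoids 0 of 9 members passed the test, and 0 had an unadjusted p below 0.05, where 12.7% of all genes were called in either direction. The differences lay between -0.75 ± 0.56 for Apob and 0.48 ± 0.44 for Apoa4. Apoa4, Apob, Apoe and Mttp did not overlap between the groups, and these 4 passed when only the arrays of these groups were fitted. The share of all genes is given for neither count, so neither is read as a result about the members. In an exact permutation test, full separation of 2 against 2 arrays has a p of 0.333. Without either gallbladder tissue array 1 member passed, Mttp (-0.37, adjusted p = 0.0188). Of the assembly and export genes 3 were lower in gallbladder organoids and 1, Tm6sf2, was higher (0.85). Those lower were Apobec1 (-1.86 ± 0.37, adjusted p = 0.0102, 0.0594 to 0.0754 without any 1 of the 4 arrays), Mia2 (-1.17 ± 0.15) and Cideb (-0.96 ± 0.15), and the regulator Hnf4g was also lower (-2.15 ± 0.21, adjusted p = 0.00018).

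Withdrawal of R-spondin 1, noggin and nicotinamide from gallbladder organoids moved 1 of the 9 members. Apob rose by 2.54 ± 0.56 (adjusted p = 0.0306), from 6.23 and 6.58 to 8.96 and 8.91, where 2.8% of all genes were called higher. Both undifferentiated arrays were dim for Apob and neither differentiated array was. The differentiated level remained below that of small intestine organoids, at 11.69 and 11.60. Apob did not pass without any 1 of the 4 arrays compared (adjusted p = 0.136 to 0.22) or without either small intestine organoid array (0.0551), and passed with an adjusted p of 0.000363 without either gallbladder tissue array. Leaving out 1 or the other of those arrays kept the difference at 2.54 and lowered its SE from 0.56 to 0.25.

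The other 8 members did not pass. Mttp read 7.94 and 7.81 before and 7.67 and 7.75 after withdrawal (-0.16 ± 0.63). Apoa4 differed by -0.26 ± 0.44, Apoc3 by 0.06 ± 0.38, Apoa2 by -0.02 ± 0.35 and Apoe by -0.28 ± 0.38. Apoa1 was lower on both differentiated arrays (6.92 and 6.90 against 7.49 and 7.36), a difference of -0.51 ± 0.37 that did not pass (adjusted p = 0.584) except without either gallbladder tissue array (0.0125), with array weights or with these groups alone.

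Of the 17 assembly and export genes 3 rose after withdrawal and 0 fell. Apobec1, the enzyme that edits Apob RNA, rose by 2.02 ± 0.37 (adjusted p = 0.0123), from 6.70 to 8.72 on average. Cideb, a lipid droplet protein that takes part in the lipidation of apolipoprotein B particles, rose by 1.17 ± 0.15 (adjusted p = 0.00192), and Mia2, a cargo receptor for export from the endoplasmic reticulum, by 1.02 ± 0.15 (adjusted p = 0.00362). Apobec1 did not pass without any 1 of the 4 arrays compared (adjusted p = 0.0825 to 0.108). The editing cofactor A1cf did not pass (-0.22 ± 0.71) and was dim on all 4 arrays.

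Hnf4g was the 1 of 23 regulators called, higher after withdrawal by 2.73 ± 0.21 (adjusted p = 7.81e-05), from 5.65 and 5.85 to 8.46 and 8.52. The count was 3 without either small intestine tissue array and 2 without either liver tissue array. Hnf4a read 12.18 and 12.18 before and 12.24 and 12.28 after (0.07 ± 0.31). Of 12 measured lipoprotein receptors Lrp1, a clearance receptor for remnants, rose by 2.00 ± 0.34 and Vldlr, the very low density lipoprotein receptor, fell by 0.79 ± 0.13, but neither passed without any 1 of the 4 arrays compared (adjusted p = 0.0579 to 0.0864 and 0.056 to 0.0765). None of the 11 other apolipoproteins, 16 triglyceride and cholesteryl ester genes or 14 lipase and remodelling genes was called by limma, while 1, 3 and 1 of them had an unadjusted p below 0.05. The triglyceride count was 1 without either liver tissue array and 2 without either gallbladder tissue array. With array weights 1 other apolipoprotein, 6 triglyceride genes, 2 lipase genes and 9 regulators were called higher, where that setting called 13.8% of all genes higher.

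**Figure D4:**
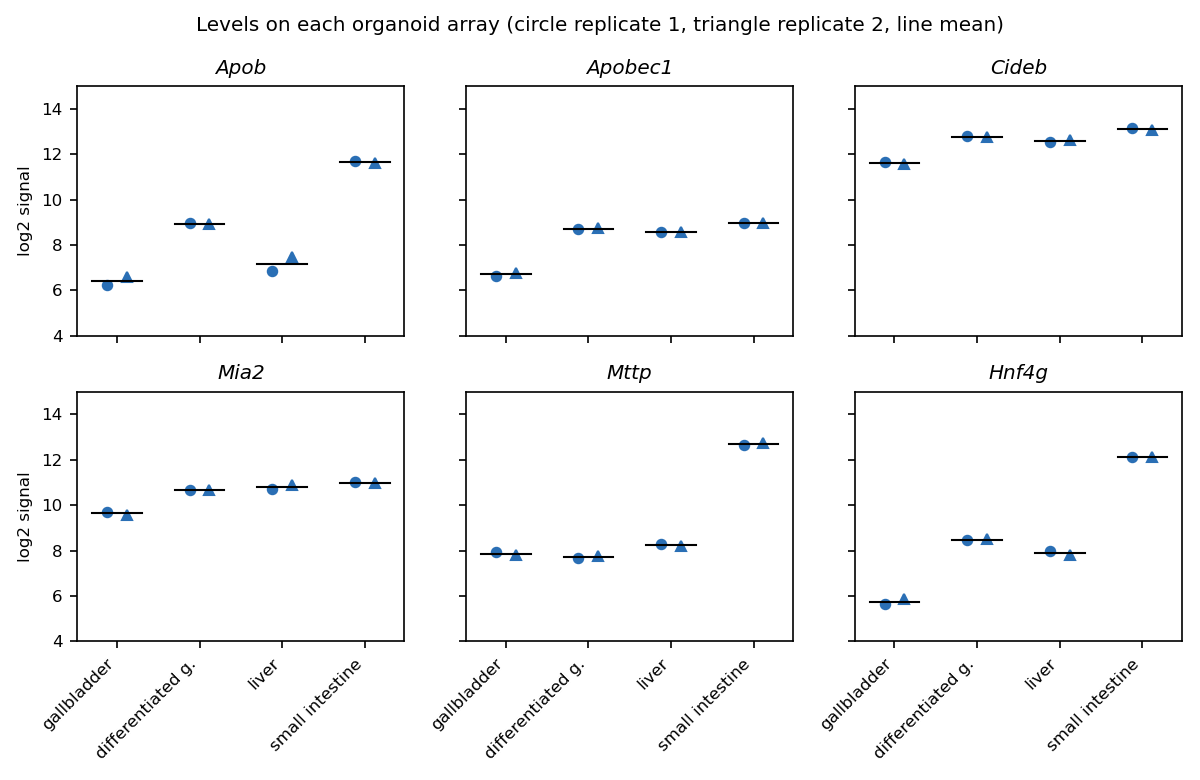
Log2 signal (y axis) on each organoid array (x axis, by group) of Apob, its editing enzyme Apobec1, the assembly and export genes Cideb and Mia2, Mttp and the regulator Hnf4g, with circles for replicate 1, triangles for replicate 2 and a line at the mean. Every gene but Mttp is higher on both differentiated than on both undifferentiated gallbladder arrays, and Mttp stays at 7.67 to 7.94.

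Likeness of pattern was described by Pearson's r over the 14 arrays, which share tissues and include 2 arrays per group, among 4142 genes whose group means span at least 2 log2 units. Apoa2 was most like Fgg (r = 0.999), Fgb and Kng1, and Apoh most like Serpind1 (0.999), Serpinc1 and Plg. Apom was most like Slc6a12 (0.998), Asgr2 and Hjv, and Apoe most like Cdh5 (0.997), Rarres2 and Tie1. In the intestinal and hepatic pattern Apoa1 was most like Dpyd (0.993), Maob and Cyp3a11, Apoc3 most like Cyp3a25 (0.996), Cd36 and Cyp3a11, and Apob most like Sec16b (0.977), Rdh7 and Cyp2d26. Apoa4 was most like Gm11437 (0.990), Tm6sf2 and Depdc7, and Mttp most like Abcg8 (0.986), Pyroxd2 and Ces2e. Between members r was 0.990 for Apoa2 and Apoh, 0.979 for Apoa4 and Mttp, 0.975 for Apoa1 and Apoc3, and 0.250 for Apoa2 and Apoa4.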

How the data were processed

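The deposited values are log2 signals of Affymetrix gene arrays in 1 table of 35556 probe sets, normalized by the authors with RMA per the submitters' processing notes. Versions and raw intensities were not used here. Of the probe sets 21789 carry 1 gene symbol, 1621 carry several and 12146 are unlisted, and gene names come from the platform annotation. For each of 19938 genes the probe set with the highest mean was kept, without further normalization or filter.

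One linear model over all 14 arrays and 7 groups was fitted with limma 3.58.1 (lmFit and eBayes) in R 4.3.3, with Benjamini-Hochberg adjustment over all genes and a threshold of 0.05. It gave 10 comparisons and 3 interactions, and the spread is shared by all groups. With 2 arrays per group the smallest p of an exact permutation test is 0.333, so none was run. The members and lists were chosen with earlier results of these data known. All members are named, and of each pathway list up to 4 called genes with the largest difference, besides any other apolipoprotein and Hnf4a. Alternatives were quantile normalization, centring, a filter on low values, another choice of probe set, array weights, another variance prior, a replicate block, the compared arrays alone, and leaving out each array. Only 1 array was left out at a time, also where a result is given without either array of a group. The model was tested on simulated data for the withdrawal comparison over 19938 genes: of 50 planted genes each, 12 were called at a log2 change of 0.5, 30 at 1, 46 at 2 and 48 at 3, with 7 false calls. The simulation gave each gene the same spread in all groups. In the data the SD of replicate differences was 0.134 and 0.139 in differentiated and undifferentiated gallbladder organoids and 0.571 in gallbladder tissue. These rates therefore need not hold for the real comparison.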

Additional observations from a re-analysis of the deposited data

Results flagged for a closer look

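The change from tissue to organoids was compared between organs with interaction terms of the limma model, and the members whose difference passed the adjusted threshold are given here as values. The tissue arrays of the gallbladder carried hepatocyte markers, and the part of those in these values was not tested.

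Between liver and small intestine the interaction passed for all 9 members, with a more negative change in liver. Apoh and Apom were dim on every small intestine array, where no fall could show, so their values restate the fall in liver. Apoa2 also had little room to fall there, at 7.88 and 8.76 in small intestine tissue and 7.81 and 7.70 in small intestine organoids. The difference was -6.07 for Apoa1, -5.86 for Apoa2, -5.22 for Apoa4, -4.58 for Apob, -5.27 for Apoc3, -3.22 for Apoe, -7.20 for Apoh, -5.53 for Apom and -3.29 for Mttp.

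Between small intestine and gallbladder 6 of 9 members differed, against 14.3% of all genes called higher, with a less negative change in small intestine. The difference was 4.93 for Apoa1, 5.10 for Apoa2, 4.10 for Apob, 4.16 for Apoc3, 1.68 for Apoe and 4.98 for Apoh. For Apoa2 and Apoh the same limit in small intestine holds.

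Between liver and gallbladder 4 of 9 members differed, against 22.7% of all genes called lower, with a more negative change in liver. The difference was -5.31 for Apoa4, -1.55 for Apoe, -2.22 for Apoh and -3.16 for Apom. In gallbladder tissue replicate 1 Apoa4 (7.65) was at the level of gallbladder organoids and Apom (6.63) was dim, so little fall could show there. The count of members depended on which array was left out, and the number of genes called over all genes changed too.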

How the results depend on the processing

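The number of members called held at 9 (liver organoids against tissue, and the interaction of liver with small intestine) and at 5 (gallbladder or liver against small intestine organoids) whichever array was left out. Elsewhere leaving out each array in turn gave 4 to 9 for liver against gallbladder tissue, 4 to 6 for liver against small intestine tissue, 6 to 8 for small intestine against gallbladder tissue, 7 to 9 for gallbladder organoids against tissue, 2 to 7 for small intestine organoids against tissue, 0 to 1 for gallbladder against liver organoids and 0 to 2 for withdrawal. The interactions with gallbladder gave 1 to 9 for liver and 5 to 9 for small intestine. With only the compared arrays fitted the counts were 1 (liver against gallbladder tissue), 3 (small intestine against gallbladder tissue), 6 (small intestine organoids against tissue), 4 (gallbladder against liver organoids), 2 (withdrawal) and 1 (interaction of liver with gallbladder). Array weights gave 1 for gallbladder against liver organoids and 2 for withdrawal. The number of genes called over all genes changed with these settings too, as given for several comparisons below. The counts under the alternatives are therefore not read as results about the members. The cause of these changes was not tested.

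Of 2570 values of single members under an alternative 2402 kept direction and side of the threshold, 84 lost and 57 gained the call, and 27 changed sign. None of these was called in the model as reported, and 2 were called with the sign turned, both in the interaction of small intestine with gallbladder: Apoa4 (0.84, adjusted p = 0.0232, without gallbladder tissue replicate 1) and Mttp (-0.52, adjusted p = 0.0163, without gallbladder tissue replicate 2). By quantile normalization Apoa1 was -0.06 and Apoa2 -0.01 in gallbladder against liver organoids, and Apoa2 was -0.06 against small intestine organoids (-0.03 after centring). Leaving out each array in turn, the differences that changed sign ranged as follows. Liver minus small intestine tissue was -0.14 to 0.01 for Apoa1 and -0.22 to 0.39 for Apob. Small intestine minus gallbladder tissue was -0.35 to 0.84 for Apoc3, and gallbladder organoids minus tissue -1.67 to 0.18 for Apoa4. Gallbladder minus liver organoids was -0.04 to 0.10 for Apoa1, -0.14 to 0.23 for Apoa2, -0.05 to 0.38 for Apoc3 and -0.10 to 0.09 for Apom. Against small intestine organoids Apoa2 was -0.05 to 0.06 in gallbladder and -0.23 to 0.14 in liver organoids, where Apoh was -0.10 to 0.18. Withdrawal gave -0.11 to 0.08 for Apoa2, -0.16 to 0.28 for Apoc3 and -0.17 to 0.02 for Apom. The interaction with gallbladder was -1.61 to 0.65 for Apob in liver, and -1.01 to 0.84 for Apoa4 and -0.52 to 2.24 for Mttp in small intestine.

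Over all genes, withdrawal called 943 (338 without gallbladder organoid replicate 1, 5720 with array weights), gallbladder against liver organoids 2530 (887 without gallbladder organoid replicate 2, 7399 with array weights), gallbladder against small intestine organoids 7100 (4533 to 12112) and liver against small intestine organoids 5275 (3565 to 8191). The 3 tissue comparisons fell to 3824 of 9597 (liver against gallbladder), 3962 of 7485 (liver against small intestine) and 3224 of 8973 (small intestine against gallbladder) with only the compared arrays. Quantile normalization moved the median of all genes from 0.09 to 0.27 in liver against gallbladder tissue, from 0.04 to 0.19 in small intestine against gallbladder tissue and from 0.17 to 0.28 in gallbladder organoids against tissue.

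Replicate numbers are shared by the groups, but deviations of same-numbered arrays correlated only between -0.104 and 0.139 over 21 pairs of groups. The numbers were therefore not used as pairs in the main model. Such low correlations cannot exclude that same-numbered arrays share a mouse or batch. With a replicate block 7 members were called in liver against gallbladder tissue instead of 6, and the count was the same in the other comparisons. The crossed pairing of the withdrawal comparison, chosen after seeing the data, called 1 member and 884 genes, against 888 with the block as numbered.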

Other observations

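Clu, which encodes clusterin (apolipoprotein J), was higher in gallbladder and liver organoids than in small intestine organoids. It read 13.85 and 13.92 in gallbladder organoids, 13.85 and 13.94 after withdrawal and 13.63 and 13.65 in liver organoids, against 10.11 and 9.67 in small intestine organoids. In liver tissue it read 13.11 and 12.79, and it was higher in liver organoids by 0.69 ± 0.17 (SE, limma adjusted p = 0.00734). In gallbladder tissue it read 13.91 and 13.77, so the replicates that differed in all 9 members differed little in Clu.

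Saa1 and Saa2, acute phase apolipoproteins of high density lipoprotein, split the liver tissue arrays. Saa1 read 13.46 in replicate 1 and 7.23 in replicate 2, and Saa2 read 14.04 and 9.45. On both arrays the 9 members differed by at most 0.50.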
